A study of Mus musculus with 36 samples.

Results

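MuSK and the genes that organize the nerve-muscle synapse around it were followed in the TA (tibialis anterior, a mostly fast muscle) and the soleus (rich in slow fibers) of WT and ∆Ig3-MuSK mice. The set was chosen by name and holds 10 genes: Musk, Lrp4, Dok7, Agrn, Rapsn, Colq, Ache, Col13a1, Etv5 and Prkar1a. Each matched a single row in both count tables, which list 51912 genes. RNA-seq was performed without strand information on 36 libraries, 9 from each muscle of each genotype. The mice were 3 months of age and on a C57BL/6 background, and their sex is not given in the sources used here. The ∆Ig3-MuSK mice were homozygous for a Musk allele from which CRISPR-Cas9 had removed the stretch that holds exons 6 and 7, a germline deletion present in every cell. The number of founders behind the line is not given in the sources used here. No group received an agent.

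The neuromuscular junction is assembled by a signal that runs from nerve to muscle. Agrin (Agrn), released by the motor nerve, binds LRP4 on the muscle surface, and LRP4 switches on the receptor tyrosine kinase MuSK. DOK7 binds MuSK inside the fiber and is needed for its full activity, and rapsyn (Rapsn) then anchors acetylcholine receptors in dense clusters under the nerve terminal. In the synaptic cleft, the collagen-like tail ColQ ties acetylcholinesterase (Ache) to the basal lamina and to MuSK. Collagen XIII (Col13a1) is a transmembrane collagen that helps the synapse to mature. ETV5 is an ETS transcription factor linked to transcription in the nuclei beneath the synapse, and Prkar1a encodes the type I-alpha regulatory subunit of protein kinase A. The Ig3 domain of MuSK, an immunoglobulin-like fold of its extracellular part, binds bone morphogenetic protein and is not needed for the response to agrin.

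The exons removed from the Musk allele are shown because they define the mutant. On GRCm38, Musk lies at chr4:58285960-58374303 on the plus strand, with exon 6 at chr4:58333565-58333689 and exon 7 at chr4:58344152-58344318, numbered as in transcript ENSMUST00000081919. The exons measure 125 and 167 bases and span 10754 bases with the intron between them. Both are printed 5′ to 3′ as in GENCODE M21, and the capitals mark the last 7 bases of exon 7, which among the 7 coding Musk transcripts only ENSMUST00000081919 takes from that exon.
Musk exon 6: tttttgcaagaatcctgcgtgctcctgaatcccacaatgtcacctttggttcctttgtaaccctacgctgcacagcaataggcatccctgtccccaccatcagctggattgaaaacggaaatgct
Musk exon 7: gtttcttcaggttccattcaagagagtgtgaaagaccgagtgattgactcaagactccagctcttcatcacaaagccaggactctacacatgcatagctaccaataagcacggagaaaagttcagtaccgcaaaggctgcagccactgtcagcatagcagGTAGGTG
In 6 of the 7 coding transcripts, 285 coding bases lie in this span, a multiple of 3. In ENSMUST00000081919 it is 292 bases, which is not. These 292 bases make up 7.73% of the 3776 Musk exon bases in GENCODE M21, so 0.923 of that length is left in the mutant. The annotation used for the counts is not given. The deposited counts are sums over the whole gene, and the loss of the exons cannot be read from them.

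Total counts lay between 43492062 and 78660422 per library, and 0 of 630 library pairs held identical counts. All 6 slow fiber markers were higher and all 6 fast fiber markers lower in the soleus than in the TA in both genotypes, so the muscle labels hold. In 3 TA libraries, WT replicates 3 and 5 and ∆Ig3-MuSK replicate 3, the deviation of genes from their group mean fell with exon length, with a rank correlation across 18853 genes of -0.36, -0.34 and -0.36. In the soleus libraries this rank correlation ran from -0.25 to 0.24. The genotype differences of Musk, Agrn, Etv5, Lrp4 and Colq in the TA are also given without these 3 TA libraries.

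Levels were compared between members per kb of exon, since a long gene collects more reads. CPM here is a gene's count scaled to the reads on genes in its library, with TMM factors over all 36 libraries. In WT soleus, Prkar1a stood first at 36.1 ± 3.11 CPM per kb (SD, n = 9), followed by Rapsn at 10.3 ± 0.736. Colq (4.93 ± 0.879), Musk (4.02 ± 0.482), Dok7 (3.48 ± 0.661), Ache (3.01 ± 0.367) and Etv5 (2.83 ± 0.400) came next, and each of these overlapped its neighbours among them. Agrn (1.96 ± 0.214) and Lrp4 (1.88 ± 0.183) overlapped each other, Agrn also overlapped Etv5, and Col13a1 was last at 0.484 ± 0.0702, below every library of Lrp4.

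The order differed in WT TA. Prkar1a (19.7 ± 1.10 CPM per kb) and Rapsn (13.8 ± 1.14) again led and Col13a1 (0.265 ± 0.0702) was again last. Ache (5.57 ± 0.740) and Dok7 (4.49 ± 1.07) now overlapped each other above the rest. Musk (1.13 ± 0.251), Lrp4 (1.06 ± 0.270) and Colq (0.995 ± 0.123) stood together below Agrn (2.02 ± 0.504) and Etv5 (1.57 ± 0.182). Musk and Colq thus held the fourth and the third place in the soleus and the seventh and the ninth in the TA. In ∆Ig3-MuSK mice Musk stood just below Dok7 in the soleus (2.99 ± 0.872) and just below Colq in the TA (0.817 ± 0.104), overlapping that neighbour in each.

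**Figure D1:**
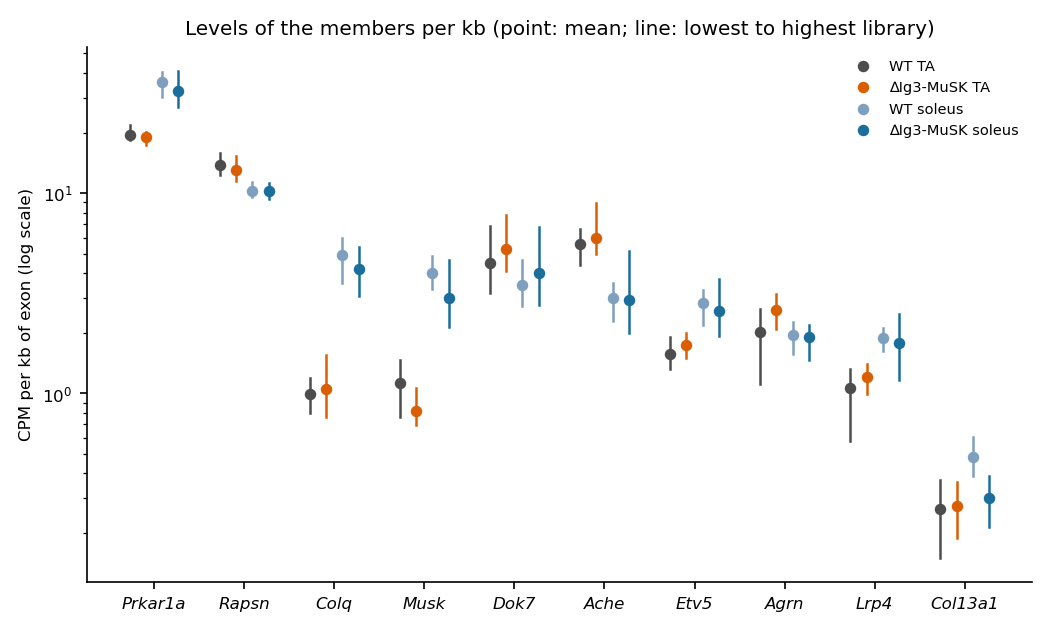
Level of each member in CPM per kb of exon, on a log axis, in the 4 groups of 9 libraries; points are group means and lines run from the lowest to the highest library. In WT, Colq goes from 4.93 in the soleus to 0.995 in the TA and Musk from 4.02 to 1.13, while Rapsn and Ache stand higher in the TA.

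The first comparison asked how the members differ between a slow and a fast muscle. Of the 10 members, 9 differed between soleus and TA in WT mice, 6 higher and 3 lower in the soleus, with Agrn as the exception. Among all 20841 genes tested, 30.2% were called higher and 27.3% lower in the soleus, so a difference between these muscles is common. A gene was called at a Benjamini-Hochberg adjusted p under 0.05 and at least a 1.2-fold change in edgeR's quasi-likelihood test. In bulk muscle, fewer cells or nuclei of a type and less RNA in each cannot be told apart. The labels name no preparation batch, and anything that differed between the handling of soleus and TA samples cannot be told apart from the muscle.

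Colq and Musk showed the highest soleus-to-TA folds among the members. Colq (chr14:31523082-31591343, minus strand) lay between 13.5 and 22.8 CPM in WT soleus, with a median of 19.0, and between 3.03 and 4.55 CPM in WT TA, with a median of 3.82. The muscles did not overlap, and Colq was 4.95-fold higher in the soleus (95% interval 4.13 to 5.92, edgeR adjusted p = 2.74e-18). Musk ranged from 12.5 to 18.4 CPM in WT soleus (median 14.7) and from 2.86 to 5.58 CPM in WT TA (median 3.81). Again no library overlapped, with a fold of 3.56 (2.97 to 4.28, edgeR adjusted p = 3.57e-15). Colq shares 199 exon bases with Gm49387 on the same strand, so its reads there cannot be assigned to either gene with certainty.

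Acetylcholinesterase, which ColQ anchors, ran the other way. Ache (chr5:137287519-137294466, plus strand) lay between 10.7 and 16.5 CPM in WT soleus (median 14.2) and between 20.3 and 30.8 CPM in WT TA (median 26.3). Every WT soleus library was below every WT TA library, and the fold was 0.541 (0.452 to 0.648, edgeR adjusted p = 1.41e-07). The enzyme and its anchor therefore differed in opposite directions between the muscles, also in ∆Ig3-MuSK mice, where Colq was 3.99-fold higher (edgeR adjusted p = 1.61e-16) and Ache 0.486-fold (edgeR adjusted p = 5.31e-09). Ache overlaps the antisense gene Gm42456 over 98 bases, and without strand those reads cannot be assigned.

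The receptor LRP4 and the proteins inside the fiber did not move together either. Lrp4 (chr2:91457511-91513779, plus strand) was 1.77-fold higher in WT soleus, at 19.8 ± 1.92 CPM against 11.2 ± 2.84 CPM in the TA (SD, n = 9, edgeR adjusted p = 1.69e-07). Its log2 fold change lay between 0.67 and 0.90 in 7 other settings and was called in each. These settings include a fit without the TA libraries poor in long transcripts. Rapsn (chr2:91035620-91045729, plus strand), the receptor anchor, was lower in every WT soleus library (17.2 to 20.5 CPM, median 17.9) than in any WT TA library (22.2 to 28.6 CPM, median 24.2). Its fold was 0.743 (0.687 to 0.803, edgeR adjusted p = 1.41e-08). Dok7 (chr5:35056766-35087839, plus strand), the activator of MuSK, was 0.774-fold in the soleus (0.623 to 0.963, edgeR adjusted p = 0.0348), and its ranges of 11.7 to 19.8 CPM in the soleus and 13.7 to 29.4 CPM in the TA overlapped. Only 3 of the 9 WT soleus libraries were below the lowest WT TA library for Dok7.

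The nerve and muscle ligand Agrn (chr4:156165290-156197488, minus strand) gave 18.2 ± 1.99 CPM in WT soleus and 18.8 ± 4.68 CPM in WT TA (SD, n = 9), a fold of 0.968 (0.826 to 1.14, edgeR adjusted p = 0.728). The lowest WT TA values of Agrn, 12.6 and 10.4 CPM, were in replicates 3 and 5, the libraries poor in long transcripts. Without the 3 such TA libraries the log2 fold change of Agrn in WT was -0.21 (SE 0.0862, edgeR adjusted p = 0.0336), short of the 1.2-fold limit.

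Col13a1, Etv5 and Prkar1a were each higher in WT soleus than in every WT TA library. Col13a1 (chr10:61838236-61979108, minus strand) lay between 1.78 and 2.79 CPM (median 2.26) in WT soleus and between 0.693 and 1.71 CPM (median 1.31) in WT TA, 1.81-fold higher (1.48 to 2.21, edgeR adjusted p = 2.03e-06). Etv5 (chr16:22381309-22439719, minus strand) was 1.80-fold higher (1.58 to 2.06, edgeR adjusted p = 5.02e-10). Prkar1a (chr11:109649405-109669656, plus strand) was 1.84-fold higher (1.68 to 2.01, edgeR adjusted p = 3.83e-15), at 156 ± 13.5 CPM against 84.9 ± 4.74 CPM (SD, n = 9).

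**Figure D2:**
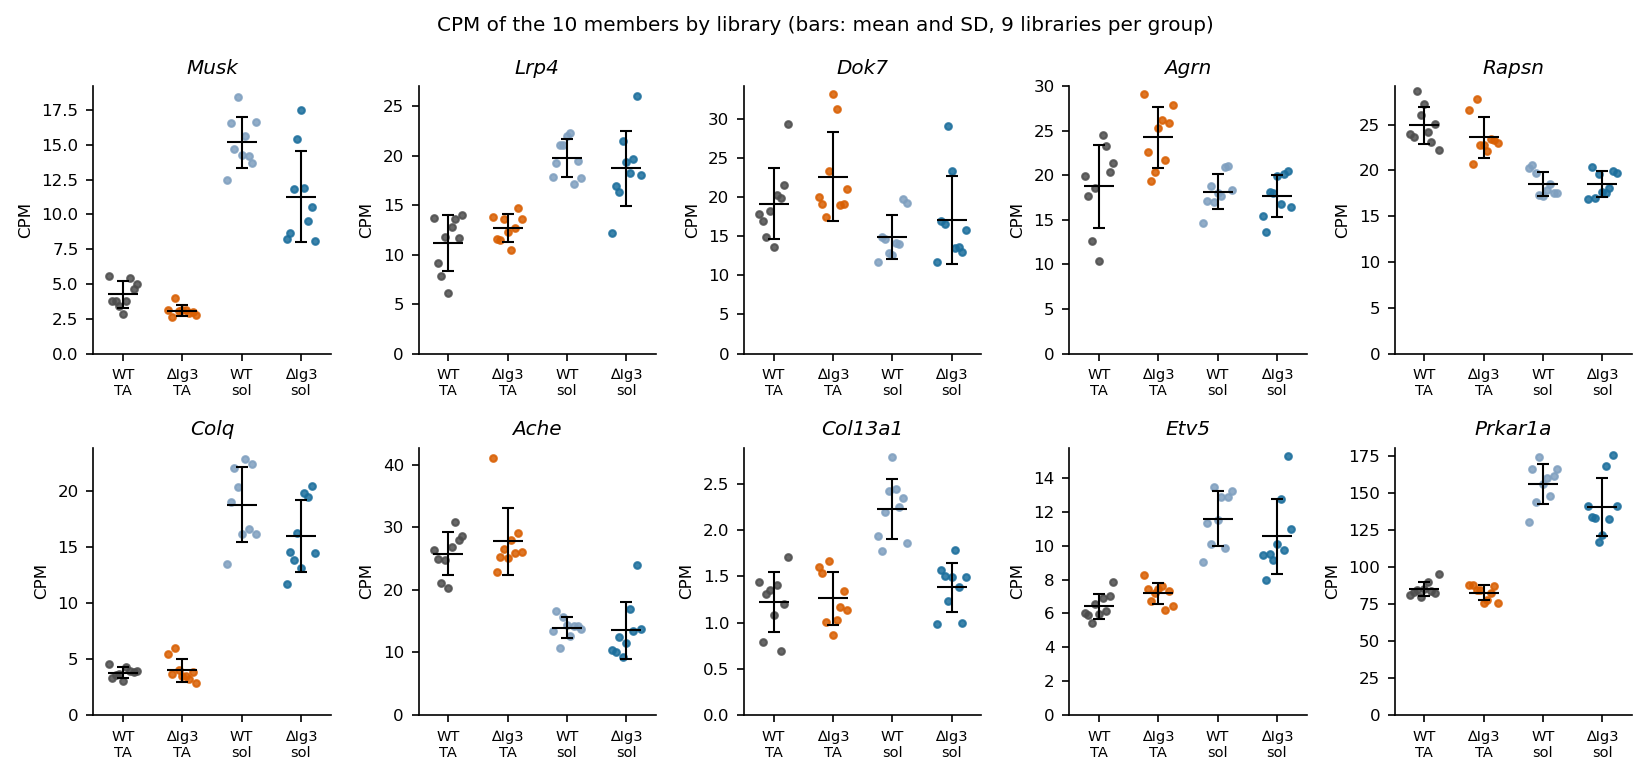
CPM of each member in every library of the 4 groups; points are libraries, horizontal bars are means and error bars are SD over 9 libraries. In WT, Musk, Lrp4, Colq, Col13a1, Etv5 and Prkar1a sit higher in every soleus library than in any TA library, and Ache and Rapsn sit lower.

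In ∆Ig3-MuSK mice, 5 members were called higher and 4 lower in the soleus, beside 28.5% of all genes higher and 27.6% lower. Musk was 3.66-fold higher (3.04 to 4.41, edgeR adjusted p = 3.46e-15), Prkar1a 1.70-fold, Lrp4 1.47-fold and Etv5 1.47-fold. Rapsn (0.785-fold) and Dok7 (0.755-fold) were lower, as in WT. Agrn was called lower in the mutant soleus at 0.728-fold (0.621 to 0.853, edgeR adjusted p = 5.58e-04), and all 9 mutant soleus libraries were below the mean of the mutant TA libraries. Col13a1 was not called in the mutant, at 1.10-fold (0.894 to 1.34, edgeR adjusted p = 0.431), and its mutant soleus libraries (0.988 to 1.79 CPM) overlapped the mutant TA libraries (0.870 to 1.66 CPM).

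**Figure D3:**
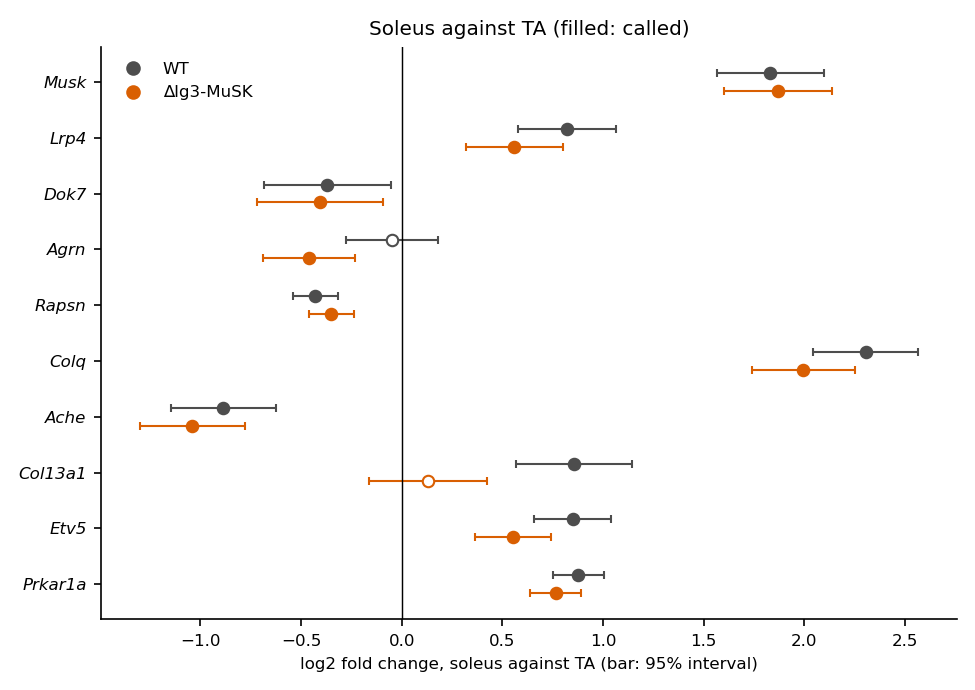
Log2 fold change of each member in the soleus against the TA, in WT and in ∆Ig3-MuSK mice; points are estimates of a single fit over 36 libraries, bars are 95% intervals and filled points were called. Colq and Musk lie farthest to the right in both genotypes, Ache, Rapsn and Dok7 lie left of 0 in both, and Col13a1 is filled in WT only.

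The targeted gene was read first in the comparison of genotypes. Musk ranged from 2.62 to 4.01 CPM in ∆Ig3-MuSK TA (median 3.08) against 2.86 to 5.58 CPM in WT TA (median 3.81), and all 9 mutant libraries were below the WT mean. In the soleus it ranged from 8.07 to 17.5 CPM in the mutant (median 10.5) against 12.5 to 18.4 CPM in WT (median 14.7), and 7 of 9 mutant libraries were below the lowest WT library. The other 2, replicates 4 and 5 at 15.4 and 17.5 CPM, sat inside the WT range. Their rank correlations of gene deviations with exon length, 0.17 and 0.24, were the highest of the group. Replicates 1, 2 and 9, lowest in Musk at 8.21, 8.67 and 8.07 CPM, were at -0.18, -0.25 and -0.18. Replicate 7, at 0.12, held 9.49 CPM. The part of transcript length in the Musk difference in the soleus was not tested.

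On the log2 scale Musk was -0.46 (SE 0.117, edgeR adjusted p = 0.135) in the TA and -0.44 (SE 0.133, edgeR adjusted p = 0.0978) in the soleus, folds of 0.725 (0.612 to 0.858) and 0.739 (0.610 to 0.896). Neither was called. By GENCODE M21 the mutant keeps 0.923 of the Musk exon length, and the part of the missing exons in the difference was not tested. The call depended on the test: DESeq2 called Musk lower in both muscles (adjusted p = 0.0246 in TA, 0.0400 in soleus), and limma-voom with quality weights did so too (0.0275 and 0.0371). Without the 3 TA libraries poor in long transcripts, Musk was called lower in the TA by edgeR, at -0.61 (SE 0.101, adjusted p = 0.0336). Leaving these out takes away WT values below the WT mean, 3.77 and 2.86 CPM, and the highest mutant value, 4.01 CPM. Libraries with the opposite relation to exon length stayed in, such as WT TA replicate 1 at a rank correlation of 0.32. Musk was also called lower in the soleus without ∆Ig3-MuSK replicate 5, the mutant soleus library with the most Musk. It was then at -0.54 (SE 0.114, edgeR adjusted p = 0.0472). Of 18 soleus fits that each left out a library, this was the 1 that called Musk, with edgeR adjusted p up to 0.167. In the TA 0 of 18 did. Of the other settings, 4 of 7 called Musk in the TA and 3 of 6 in the soleus. The difference between the effects in soleus and TA was 0.04 on the log2 scale, with an interval of -0.33 to 0.41 (edgeR adjusted p = 0.915).

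In the TA, edgeR called 0 of 10 members, beside 0.0149% of all 20075 genes higher and 0% lower. At an unadjusted p under 0.05, 2 members were higher and 1 lower, beside 12.2% of all genes higher and 12.0% lower. The 2 higher members were Agrn, at 0.37 on the log2 scale (SE 0.133, edgeR adjusted p = 0.163), and Etv5, at 0.16 (SE 0.0720, edgeR adjusted p = 0.190). Agrn lay between 19.4 and 29.1 CPM (median 25.4) in mutant TA and between 10.4 and 24.5 CPM (median 20.0) in WT TA, with 5 mutant libraries above the highest WT library. Without the 3 TA libraries poor in long transcripts its difference was 0.25 (SE 0.0803, edgeR adjusted p = 0.112). For Etv5 it was 0.12 (SE 0.0715, edgeR adjusted p = 0.371), and it then missed an unadjusted p under 0.05. For Lrp4 the difference was 0.18 (SE 0.130) with these libraries and 0.05 (SE 0.0849) without them, and for Colq it went from 0.07 (SE 0.123) to -0.07 (SE 0.109). The remaining members of the TA, Dok7, Rapsn, Colq, Ache, Col13a1 and Prkar1a, had log2 differences between -0.08 and 0.24, with edgeR adjusted p-values from 0.295 to 0.892.

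In the soleus, 1 of 10 members was called, Col13a1, which was lower in the mutant. Of all 19439 genes tested there, 0.586% were called lower and 0.365% higher. Col13a1 lay between 0.988 and 1.79 CPM in ∆Ig3-MuSK soleus (median 1.49) and between 1.78 and 2.79 CPM in WT soleus (median 2.26). Of the mutant libraries, 8 of 9 were below the lowest WT library, and all 9 were below the WT mean. The log2 difference was -0.70 (SE 0.119), a fold of 0.617 (0.520 to 0.733, edgeR adjusted p = 0.0161). These values rest on few reads, 44 to 90 counts in mutant and 86 to 134 in WT soleus libraries. The call held in all 18 fits that each left out a library, with adjusted p between 0.0089 and 0.0380, and in 6 of 6 other settings.

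Col13a1 in the mutant soleus stood at the level of the TA. Its mean was 1.38 ± 0.266 CPM there, against 1.22 ± 0.323 CPM in WT TA and 1.26 ± 0.287 CPM in mutant TA (SD, n = 9). In the TA its genotype difference was 0.04 (SE 0.161, edgeR adjusted p = 0.892). The difference between the 2 genotype effects was -0.72 on the log2 scale (SE 0.203, edgeR adjusted p = 0.102), which did not pass. By limma-voom it did (-0.79, adjusted p = 0.0265), and DESeq2 gave no adjusted p for it.

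Markers of other cells and of fiber types were read beside Col13a1 in the soleus. Of all genes tested there, 10.1% were lower and 8.48% higher in the mutant at an unadjusted p under 0.05. The shares called were 0.586% lower and 0.365% higher. All 6 fibroblast markers had estimates below 0 in the mutant, 3 of them at an unadjusted p under 0.05 and 0 called, with a median of -0.45 on the log2 scale against -0.00 over all genes tested. Col1a1, a collagen of fibroblasts chosen here after its value was seen, was at -0.97 (SE 0.280, edgeR adjusted p = 0.0832). Of the same markers, Dpt averaged 29.4 CPM in mutant and 29.5 CPM in WT soleus, and Dcn 239 and 256 CPM. The summed fibroblast marker level ran from 772 to 2203 CPM (median 1154) in WT soleus and from 403 to 1215 CPM (median 870) in mutant soleus, and the lowest library of Col1a1 was at 44.4 CPM. In the TA the medians were 848 and 847 CPM. Estimates of all 6 fast fiber markers were above 0 in the mutant (0 called and 1 at an unadjusted p under 0.05, median 0.21). Of 6 slow fiber markers, 4 were below 0 and 2 above (0 called and 0 at an unadjusted p under 0.05, median -0.06). The part of fibroblasts or of fiber content in the Col13a1 difference was not tested. Of 5 endothelial markers, 4 had estimates below 0, 2 at an unadjusted p under 0.05 and 0 called. Estimates were also below 0 for the macrophage markers (5 of 5, 0 called and 0 at an unadjusted p under 0.05, median -0.40) and the immediate early genes (9 of 9, 0 called and 4 at an unadjusted p under 0.05, median -0.57). Estimates of the Schwann cell markers were above 0 (6 of 6, 0 called and 1 at an unadjusted p under 0.05, median 0.17). So were 4 of 6 of the neuron markers (1 called and 4 at an unadjusted p under 0.05, median of the 6 at 0.65). The 1 called was Syt1, a synaptic vesicle protein, at 1.79-fold (edgeR adjusted p = 0.0390). Of 10 circadian clock genes, 6 were called higher and 2 lower in mutant soleus, and the part of sampling time in any of these differences was not tested.

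At an unadjusted p under 0.05, 4 members were lower and 0 higher in the mutant soleus, beside 10.1% of all genes lower and 8.48% higher. Besides Col13a1 and Musk they were Colq, at -0.25 (SE 0.117, edgeR adjusted p = 0.257), and Prkar1a, at -0.17 (SE 0.0702, edgeR adjusted p = 0.211). Colq lay between 11.6 and 20.4 CPM (median 14.5) in the mutant and between 13.5 and 22.8 CPM (median 19.0) in WT, so the groups overlapped broadly. Estimates were below 0 for 9 of the 10 members, with a median of -0.12, against -0.00 over all genes. Rapsn differed least, at -0.01 with an interval of -0.11 to 0.09. Lrp4 (-0.09), Agrn (-0.05), Ache (-0.06) and Etv5 (-0.15) had edgeR adjusted p-values from 0.474 to 0.861, and Dok7, the sole member above 0, was at 0.19 (SE 0.157, edgeR adjusted p = 0.543).

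**Figure D4:**
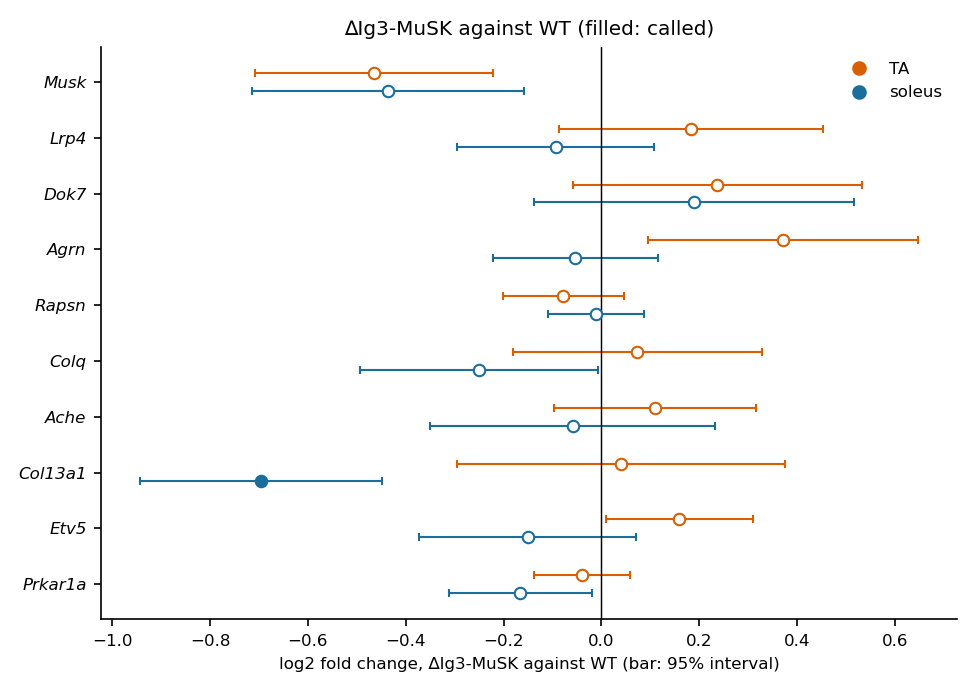
Log2 fold change of each member in ∆Ig3-MuSK against WT, in the TA and in the soleus; points are estimates of a fit within each muscle, bars are 95% intervals and filled points were called. Col13a1 in the soleus, at -0.70, is the single filled point, and Musk lies near -0.45 in both muscles.

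Whether the genotype effect differed between the muscles was tested as an interaction over the 36 libraries. By edgeR, 0% of the 20841 genes passed, and so 0 of 10 members did, while 24.9% of all genes had an unadjusted p under 0.05. DESeq2 passed 753 genes in the positive and 296 in the negative direction, and limma-voom 716 and 636. Of the members, 3 had an unadjusted p under 0.05, each with a lower effect in the soleus: Col13a1, Agrn at -0.41 (SE 0.160, edgeR adjusted p = 0.123) and Etv5 at -0.30 (SE 0.133, edgeR adjusted p = 0.166). For Agrn the difference was -0.30 (SE 0.120) without the 3 TA libraries poor in long transcripts.

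Genes of the acetylcholine receptor, which the pathway clusters, were also compared between the muscles. Of its 5 muscle subunit genes, 2 were called higher and 2 lower in WT soleus, beside 30.2% and 27.3% of all genes. Chrna1, the ligand-binding alpha subunit, was 4.78-fold higher (edgeR adjusted p = 1.21e-17) and Chrnd, the delta subunit, 3.70-fold higher (edgeR adjusted p = 7.75e-14). Chrne, the adult epsilon subunit, was 0.525-fold (edgeR adjusted p = 1.22e-07). In ∆Ig3-MuSK mice 2 were again called higher and 2 lower, beside 28.5% and 27.6% of all genes. Chrna1 was at 4.41-fold, Chrnd at 2.73-fold and Chrnb1, the beta subunit, at 0.555-fold (edgeR adjusted p = 1.16e-11). Between genotypes, 0 of 5 subunits were called by edgeR in either muscle. At an unadjusted p under 0.05, 2 were lower in the soleus, beside 10.1% of all genes, and 0 in the TA, beside 12.0%.

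Further genes of the pathway came from lists chosen by function. Their counts in WT stand beside 30.2% of all genes called higher and 27.3% lower in the soleus. Of 22 partners and kinases that act with MuSK, 5 were called higher and 6 lower in WT soleus, including Wnt4, a secreted ligand, at 0.113-fold, Bgn (biglycan, a matrix proteoglycan that binds MuSK) at 3.38-fold and the kinase Pak1 at 0.398-fold. Of 12 genes of the synaptic basal lamina and its receptors, 8 were called higher and 1 lower, with the laminin gene Lama2 at 2.15-fold, the dystroglycan gene Dag1 at 1.70-fold and Lama5 at 0.561-fold. Of 11 subsynaptic cytoskeleton genes, 7 were called higher and 3 lower, with the intermediate filament gene Nes at 2.37-fold, the nuclear anchor gene Syne1 at 1.71-fold and the dystrophin gene Dmd at 1.70-fold. The part of the TA libraries poor in long transcripts in the folds and calls of all these lists was not tested. Of 8 neuregulin receptor and ETS factor genes, 7 could be tested and 6 were called higher, with Erbb3 at 2.31-fold, Etv4 at 2.28-fold and Erbb4 at 1.51-fold. Of the 5 other protein kinase A subunits, 3 were called higher, Prkar2b at 2.78-fold, Prkaca at 1.31-fold and Prkar1b at 1.30-fold. Of 7 denervation response genes, 4 were called higher and 1 lower, with the adhesion molecule gene Ncam1 at 4.40-fold, Gadd45a at 0.333-fold and the myogenic factor gene Myog at 1.67-fold. Of 5 glycosylation genes of congenital myasthenic syndromes, 1 was called higher and 2 lower, Alg14 at 1.32-fold, Alg2 at 0.540-fold and Gmppb at 0.773-fold. In ∆Ig3-MuSK mice, 28.5% of all genes were called higher and 27.6% lower in the soleus. The calls there were 1 higher and 6 lower for the MuSK partners, 4 and 3 for the basal lamina and 4 and 2 for the cytoskeleton. They were 4 and 0 for the neuregulin receptors and ETS factors and 3 and 0 for protein kinase A. For the denervation genes they were 3 and 2, and for the glycosylation genes 1 and 3.

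Between genotypes, edgeR called 0 genes of these 7 lists in either muscle. At an unadjusted p under 0.05 in the soleus, 10.1% of all genes were lower and 8.48% higher. Beside this, 4 of the 12 basal lamina genes and 4 of the 11 cytoskeleton genes were lower and 0 of each higher. Of the 22 MuSK partners, 3 were lower and 1 higher. In the TA at the same limit, 12.2% of all genes were higher and 12.0% lower. Of the lists in the TA, 3 basal lamina genes were higher and 0 lower, 4 cytoskeleton genes higher and 1 lower, and 4 MuSK partners higher and 3 lower. In the soleus, all 12 basal lamina genes had estimates below 0, with a median of -0.15. In the TA, 10 of the 12 were above 0, with a median of 0.20. The part of the 3 TA libraries poor in long transcripts in that median was not tested. The denervation response genes had medians of -0.28 in the soleus and 0.19 in the TA. In the soleus they went both ways at an unadjusted p under 0.05, with 2 higher and 3 lower in the mutant, and in the TA 2 were higher and 0 lower.

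The upstream sequence of Musk is shown because the gene differs 3.56-fold between the muscles. It covers the 250 bases before the RefSeq start on GRCm38.p6, chr4:58285712-58285961, plus strand, and the capitals mark an E-box of the form CAGCTG, a motif that myogenic factors bind.
Musk upstream: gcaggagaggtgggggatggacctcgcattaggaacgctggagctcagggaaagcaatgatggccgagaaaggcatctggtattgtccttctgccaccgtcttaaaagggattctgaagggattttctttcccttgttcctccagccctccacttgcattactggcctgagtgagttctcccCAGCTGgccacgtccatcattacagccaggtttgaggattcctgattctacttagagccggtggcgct
Promoter windows of 300 bases, 250 before and 50 after a start, were found for 7 of the 10 members and searched on both strands for CAGCTG and for the N-box core CCGGAA. The E-box begins 68 bases before the Musk start and was also found in windows of Etv5 and Prkar1a, and it is present in 16.3% of all 32851 windows. The N-box core was found in a window of Prkar1a and in none of Musk, Dok7, Agrn, Ache, Col13a1 and Etv5, and it is present in 14.9% of all windows. Some members have several windows, Prkar1a the most, and the shares are per window, so they cannot be set against counts of members. No window of a member held both motifs. Lrp4, Rapsn and Colq were not matched.

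The members were also compared across libraries of the same group. In each muscle, log2 CPM of Musk was correlated with each of the other 9 members over 18 libraries after the genotype means were taken off, 18 pairs in all. Only Colq in the TA passed, with Pearson's r = 0.61 (permutation p = 0.00096, adjusted p = 0.0173) and Spearman's rho = 0.64 (permutation p = 0.00414, adjusted p = 0.0745). Without the 2 libraries farthest from the Musk median, r was 0.51 (permutation p = 0.0159, adjusted p = 0.218), which no longer passed. Within genotype r was 0.74 in WT and 0.74 in the mutant. The relation was not computed without the 3 TA libraries poor in long transcripts. In the soleus the same pair gave r = 0.14 (permutation p = 0.611, adjusted p = 0.817).

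Over all 36 libraries, after group means were taken off, the genes with the highest correlation with Musk among 18930 were Abr (r = 0.73), Fam208a (0.69), Gm15819 (0.69), Mylk (0.68) and Adarb1 (0.67). Of the members, Dok7 came nearest (r = 0.50, rank 285), then Lrp4 (r = 0.49, rank 390). Rapsn (r = -0.16), Prkar1a (-0.05) and Col13a1 (-0.01) were at or below 0. These correlations are a description, over libraries that also differ in their yield of long transcripts, and they carry no test.

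Dok7 was high in TA and soleus libraries that carry the same number in their labels. There are 16 such numbers, 8 WT and 8 ∆Ig3-MuSK. The highest mutant values in both muscles were in the same 2 numbers, at 33.1 and 31.3 CPM in the TA (replicates 5 and 6) and 29.1 and 23.4 CPM in the soleus (replicates 4 and 5). The latter are the 2 mutant soleus libraries in which Musk was inside the WT range. They also had the highest rank correlations with exon length among mutant soleus libraries, and the part of this was not tested. The other 6 mutant numbers lay between 17.5 and 23.4 CPM in the TA and between 11.8 and 16.9 CPM in the soleus. In WT, replicates 8 and 9 were highest in both muscles, at 21.5 and 29.4 CPM in the TA and 19.8 and 19.2 CPM in the soleus.

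Over the 16 numbers, with genotype means taken off, Dok7 in the TA and in the soleus had Pearson's r = 0.81 (permutation p = 0.00036, adjusted p = 0.0036 over the 10 members). Spearman's rho was 0.61 (permutation p = 0.0162, adjusted p = 0.162). Without the 2 numbers farthest from the TA median r was 0.69, and within genotype it was 0.73 in WT and 0.89 in the mutant. The other 9 members had r between -0.17 and 0.38, with adjusted permutation p of at least 0.550 each. This comparison was chosen after the values of Dok7 were seen. The labels do not say that a shared number is a shared mouse, and the study describes a single muscle per animal.

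**Figure D5:**
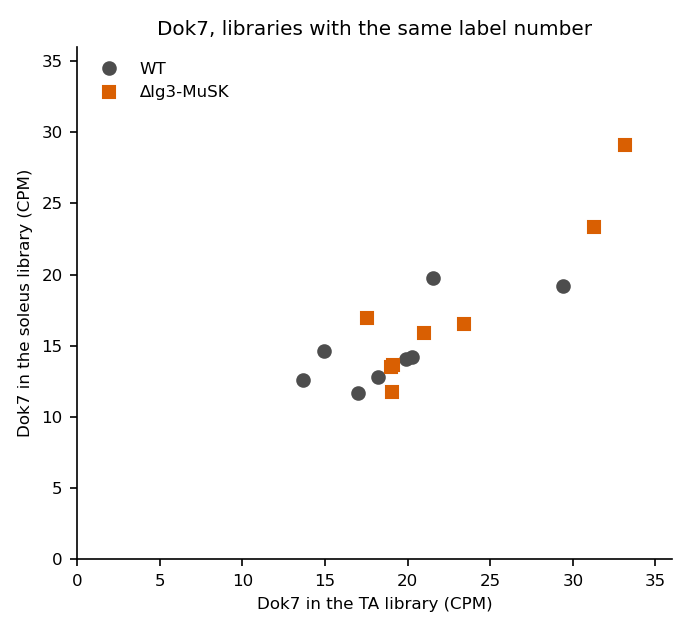
Dok7 CPM in the soleus library against Dok7 CPM in the TA library for the 16 label numbers that occur in both muscles; each point is a number, circles are WT and squares ∆Ig3-MuSK. A pair of mutant numbers sits at the upper right, at 33.1 CPM in the TA with 29.1 CPM in the soleus and at 31.3 CPM with 23.4 CPM.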

How the data were processed

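Total RNA of whole TA and soleus was sequenced from non-stranded libraries. Per the labels and the study's methods, the authors trimmed reads with Trimmomatic, aligned them to mm10 (GRCm38) with GSNAP and obtained gene counts with HTSeq. FastQC and SAMtools are also named, and versions, annotation release and counting mode are not given in the sources used here. The deposited values are raw counts in 2 tables, 1 per muscle. 0 columns of other samples were present, and no row lacked a gene.

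Symbols matched 51633 of 51912 IDs. Exon lengths and positions came from GENCODE M21 (GRCm38) and promoters from RefSeq (GRCm38.p6). Tests used R 4.3.3 and edgeR 4.0.16: filterByExpr (minimum count 10, total 15), TMM, glmQLFit and glmQLFTest, within each muscle for genotype and over 36 libraries for muscle and interaction, with Benjamini-Hochberg adjustment over all genes tested. Genes were called at an adjusted p under 0.05 and 1.2-fold, the study's limits. The study used DESeq2, an alternative here (1.42.0), as was limma 3.58.1. Intervals are at 95%. Printed CPM use TMM over 36 libraries, and log2 CPM a prior count of 2. Correlations used 100000 permutations within genotype. Procedures were tested on simulated data.

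Groups and replicate numbers came from the labels, which do not say how animals were allocated. The p-values of the tests between groups set a difference against the spread between these samples. The main fits over 36 libraries treated libraries with the same label number as independent. A setting with that number as a block was also run. At these totals, counting error matters among the members mainly for Col13a1 (34 to 134 counts per library). Of the other named genes, Erbb4 and Syt1 rest on few reads, 7 to 26 and 22 to 38 counts in WT soleus. The members and gene lists were chosen with earlier results of these data known. All 10 members are named in each comparison, and from each further list up to 3 called genes with the largest change.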

Additional observations from a re-analysis of the deposited data

Results flagged for a closer look

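Each member was checked in each group of 9 libraries for a library far from the rest, 40 checks in all, and 3 were flagged. Chance flags about 1 in 20 groups. Musk in ∆Ig3-MuSK TA replicate 3, which is also poor in long transcripts, was 4.01 CPM, and the next highest library of that group was 3.15 CPM, a gap of 0.616 of the group's range. Dok7 in WT TA replicate 9 was 29.4 CPM against a next highest of 21.5 CPM, a gap of 0.502 of the range. Ache in ∆Ig3-MuSK TA replicate 1 was 41.1 CPM against a next highest of 29.1 CPM, a gap of 0.657 of the range. The cause of these values was not tested.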

How the results depend on the processing

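Of 708 alternative values for single members and for single correlations with Musk, 697 kept their side of the threshold and, where called, their direction, 10 of members newly passed, and 1, the correlation with Colq in the TA, no longer did. In the TA, members called lower went from 0 to 1 (Musk) with DESeq2, limma-voom, a single fit over 36 libraries and without the 3 TA libraries poor in long transcripts, a setting chosen after seeing the data, and the single fit also called 1 higher (Agrn). In the soleus, members called lower went from 1 to 2 (Musk beside Col13a1) with DESeq2, limma-voom and the replicate block. Soleus against TA kept 6 higher and 3 lower calls in WT and 5 and 4 in the mutant in every setting run. For the interaction, limma-voom passed 1 member in the negative direction. Over all genes in the TA, 3 higher and 0 lower became 164 and 61 with DESeq2, 120 and 30 with limma-voom, 8 and 2 with no filter, 485 and 207 in the single fit, 22 and 3 without the 3 libraries and 0 and 0 with the replicate block. In the soleus, 71 higher and 114 lower became 162 and 324, 263 and 390, and 119 and 193 with DESeq2, limma-voom and the single fit, and 91 and 256 with the replicate block. For the interaction, 0 and 0 became 753 and 296 with DESeq2, 716 and 636 with limma-voom and 1 and 0 with the shared label number as a block. The cause of these shifts was not tested. Leaving out 1 library gave 3 to 8 genes higher and 0 to 3 lower in the TA, 14 to 233 higher and 8 to 369 lower in the soleus (lowest without WT soleus replicate 5, highest without WT soleus replicate 1), and 1 to 2 members lower in the soleus. Of the Musk pairs, 1 passed and 0 did without the 2 farthest libraries.

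Replicate numbers do not pair the genotypes: deviations of same-numbered libraries correlated with a median of -0.05 in the TA and 0.04 in the soleus, and 1 of 9 correlated best with its own number in each. Same label numbers across muscles correlated with a median of 0.08 in WT and 0.16 in the mutant, against -0.02 for other pairs in each, with 4 of 8 and 6 of 8 best with their own number. This is a hint from the data, not the design.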
